A study of Rattus norvegicus with 30 samples.

Results

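The unfolded protein response and the linked ATF4 stress response were followed through 34 rat genes in the livers of rats and of chimeric mice. The genes were chosen by symbol, for their known roles, with earlier results of these data known. The array held probes matched to 31 of the 34 genes, against 15170 symbols matched in all. Manf, Derl2 and Edem1 had no matched probe and were not analysed here.

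Gene expression in liver was measured on 30 one-colour arrays, 1 per animal, in males only. The SD rats were of the Crl:CD(SD) outbred stock, and CAR KO rats lack the constitutive androstane receptor (CAR), a nuclear receptor of hepatocytes. The chimeric mice carry rat hepatocytes in a mouse liver, so their other liver cells come from the mouse host. Each kind of animal received a diet with 0 ppm (control) or 1000 ppm phenobarbital (PB), a barbiturate drug, for 7 days, with 4 SD rats, 4 CAR KO rats and 7 chimeric mice on each diet. The age of the animals, the host mouse strain and the way the CAR allele was disrupted are not given in the sources used here. The design compares the liver's response to PB between these animal models.

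Secreted and membrane proteins fold in the endoplasmic reticulum (ER), and hepatocytes, which secrete most plasma proteins, carry a heavy folding load. When unfolded proteins build up, 3 sensors in the ER membrane act: IRE1 (encoded by Ern1) splices the mRNA of the transcription factor XBP1, ATF6 is cut to release a transcription factor, and PERK phosphorylates eIF2alpha, which favours translation of ATF4. XBP1 and ATF6 raise chaperones, disulfide isomerases and the machinery that returns misfolded proteins to the cytosol for degradation. ATF4, which other kinases also switch on when amino acids or haem run short, raises genes of amino acid synthesis and feedback regulators such as Ddit3 (CHOP) and Trib3. These arrays measured mRNA amounts and not splicing, cleavage or phosphorylation.

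The promoters of these genes share short elements, shown here because the branches are known to act through them. In RefSeq promoter windows of the GRCr8 build, from 250 bases before to 50 bases after the annotated start, 27 of the 34 genes had an entry, in 28 windows. The ER stress element (ERSE) was searched on both strands as CCAAT followed by any 9 bases and then CCACG. The first part is known to be bound by the factor NF-Y and the last by ATF6 or XBP1. It lay in 8 of the 28 windows and in 22 of all 33469 promoter windows (0.0657%). The 8 genes were Hspa5, Hsp90b1, Creld2, Canx, Xbp1, Dnajc3, Calr and Derl3. The shorter ERSE-II, searched as ATTGG followed by any 1 base and then CCACG, lay in the windows of Hyou1, Dnajb11 and Herpud1 and in 0.0508% of all windows. An ATF4 element of the C/EBP-ATF type, TGATGNAA, lay in those of Chac1, Trib3 and Herpud1 and in 3.98% of all windows. A match is a description of letters and not a measured binding site. The stretches below run 5′ to 3′ on the strand of the gene and end before the start of transcription. They show each match with up to 30 bases on either side. Capitals mark CCAAT and CCACG of an ERSE match and the whole of an ERSE-II or ATF4 element match, or the reverse complement of these.
Hspa5: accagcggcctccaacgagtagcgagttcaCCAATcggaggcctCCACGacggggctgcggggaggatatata
Xbp1: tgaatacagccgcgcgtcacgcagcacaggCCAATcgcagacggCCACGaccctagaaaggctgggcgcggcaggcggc
Hsp90b1: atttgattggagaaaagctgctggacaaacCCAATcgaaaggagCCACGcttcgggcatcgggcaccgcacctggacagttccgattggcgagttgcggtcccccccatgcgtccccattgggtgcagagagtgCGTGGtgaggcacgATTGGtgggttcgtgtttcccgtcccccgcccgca
Calr: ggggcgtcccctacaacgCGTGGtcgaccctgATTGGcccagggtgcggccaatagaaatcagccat
Dnajc3: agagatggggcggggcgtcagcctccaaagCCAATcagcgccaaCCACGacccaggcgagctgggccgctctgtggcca
Derl3: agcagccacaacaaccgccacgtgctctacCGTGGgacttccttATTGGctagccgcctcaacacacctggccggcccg
Hyou1: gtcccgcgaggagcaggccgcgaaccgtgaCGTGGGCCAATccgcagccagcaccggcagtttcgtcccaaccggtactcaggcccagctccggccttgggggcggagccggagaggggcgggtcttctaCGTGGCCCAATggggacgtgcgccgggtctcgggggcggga
Herpud1: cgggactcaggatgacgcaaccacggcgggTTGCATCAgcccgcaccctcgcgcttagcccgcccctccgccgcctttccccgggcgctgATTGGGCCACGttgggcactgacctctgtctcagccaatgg
Trib3: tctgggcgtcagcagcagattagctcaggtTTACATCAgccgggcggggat
Chac1: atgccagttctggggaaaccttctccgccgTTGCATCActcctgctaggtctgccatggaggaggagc
In GRCr8 the stretches lie at chr3:38452943-38453015, chr14:84604528-84604606, chr19:40213117-40213183, chr15:102432504-102432582, chr8:53602664-53602834 and chr3:126795934-126796001 on the plus strand. Those on the minus strand lie at chr7:23012317-23012499, chr20:12766571-12766649, chr19:10614791-10614921 and chr3:161275534-161275584. In Hspa5, which encodes the ER chaperone BiP, the element begins 43 bases before the start (-43 to -25). Hsp90b1 held 2 ERSE matches, at -176 to -158 and at -72 to -54. Hyou1 held 2 ERSE-II matches, and Herpud1 held both an ERSE-II match and an ATF4 element.

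Levels below are log2 of the background-subtracted signal minus the 75th percentile of the array, and levels of different genes are not compared because each has its own probe. The tests took in genes whose signal was well above background on at least 75% of the arrays of a group, and a gene was called where its adjusted p in limma (Benjamini-Hochberg, over all genes tested) was below 0.05. Of the 31 genes, 31 passed that filter in the rat comparisons and 30 in the PB comparison of the chimeric mice, where Ern1 was left out. Errors of levels are SDs and errors of log2 fold changes are SEs.

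Of all probes, 63.3% to 64.6% stood well above background in SD controls and 51.6% to 58.1% in chimeric controls. The arrays lay on 4 slides, with SD rats on one, CAR KO rats on another and the chimeric mice on the remaining ones, scanned on another day. The genotype or model and the slide therefore cannot be told apart, and neither can diet and slide row in the rats. All 7 chimeric controls and 1 chimeric mouse on PB shared a slide, and the other 6 on PB filled the next one. The CAR transcript Nr1i3 stood at 1.17 ± 0.495 in SD controls and at 1.12 ± 0.299 in CAR KO controls (SD, n = 4 each). Its probe was not lower in CAR KO livers, and where it lies relative to the altered part of the gene is not known here, so it does not check the labels. The PB target Cyp2b2 rose in SD rats by 4.03 ± 0.14 (adjusted p = 7.64e-10) and changed by -0.09 ± 0.14 in CAR KO rats (adjusted p = 0.803).

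In SD rats, PB moved none of these genes past the threshold. Of 11 genes chosen to check the PB and CAR response, which include the receptor genes Nr1i3 and Nr1i2, 9 rose and 1 fell. Of the 31 stress response genes tested, 0 were called, against 4.3% of all 17009 genes (2.5% higher and 1.8% lower), and the unadjusted p was below 0.05 for 3422 of all genes. The median log2 fold change of the 31 was 0.04 against -0.02 over all genes. Hspa5, the BiP chaperone that is the usual read-out of ER stress, stood at 5.95, 5.65, 6.27 and 5.74 in SD controls and at 6.03, 5.79, 5.79 and 5.97 on PB. The groups overlapped throughout, and the change was -0.01 ± 0.15 with a 95% interval from -0.34 to 0.32. Calr changed by -0.04 (interval -0.29 to 0.20) and Pdia6 by 0.05 (-0.16 to 0.26). None of these 3 genes was called.

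None of the transcription factors was called in SD rats. Atf4 changed by 0.16 ± 0.15 (adjusted p = 0.599), Xbp1 by 0.12 ± 0.30 (adjusted p = 0.856) and Ddit3, the pro-apoptotic factor CHOP, by -0.06 ± 0.11 (adjusted p = 0.804). Atf3, a stress-induced factor of the ATF family, read -1.86, -2.15, -2.10 and -2.98 in controls and -1.75, -1.07, -0.90 and -1.73 on PB. All 4 PB arrays lay above all 4 controls, yet the change of 0.91 ± 0.50 had an adjusted p of 0.33.

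Phgdh and Herpud1 came closest to a call in SD rats. Phgdh, the first enzyme of serine synthesis and an ATF4 target, read -1.48, -0.71, -0.79 and -0.97 in controls and 0.00, 0.17, -0.35 and -0.55 on PB. Every PB array lay above every control, and the change was 0.80 ± 0.22 (adjusted p = 0.0531). Herpud1, a membrane component of ER-associated degradation, read 4.25, 4.12, 3.49 and 3.78 in controls and 3.53, 3.44, 2.80 and 3.26 on PB. Its change was -0.66 ± 0.19 (adjusted p = 0.0621), with 1 PB array above the lowest control. Groups did not overlap for 2 genes above (Phgdh and Atf3) and 1 below (Sesn2, a stress-induced regulator of mTORC1), against 5.9% and 5.75% of all genes. With 1 array left out, 1 gene was called in 3 cases, and it differed: Herpud1 without SD control 3, Atf6 without SD PB 3 and Phgdh without SD PB 4.

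In CAR KO rats PB also moved 0 of the 31 genes past the threshold, against 0.205% of all 17551 genes (0.0513% higher and 0.154% lower), with 2857 of all genes at an unadjusted p below 0.05. Phgdh read -2.42, -2.43, -2.08 and -2.94 in CAR KO controls and -2.35, -2.45, -2.35 and -1.80 on PB, a change of 0.23 ± 0.22 (adjusted p = 0.64). The arrays of both diets overlapped. Psat1, the next enzyme of the serine pathway, read -2.20, -1.79, -2.26 and -2.58 in controls and -1.35, -1.55, -1.47 and -1.39 on PB. All 4 PB arrays lay above the controls, as for 3.7% of all genes, and the change was 0.77 ± 0.26 (adjusted p = 0.184). Atf6 lay wholly below its controls, as did 7.1% of all genes, at -0.20 ± 0.07 (adjusted p = 0.189). The difference between the PB responses of CAR KO and SD rats was called for 0 of 31 genes, against 0.533% of all 17812 genes (0.107% higher and 0.427% lower), with 2347 of all genes at an unadjusted p below 0.05. For Phgdh it was -0.57 ± 0.31 (interval -1.24 to 0.10) and for Hspa5 0.08 ± 0.22 (-0.38 to 0.55).

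**Figure D1:**
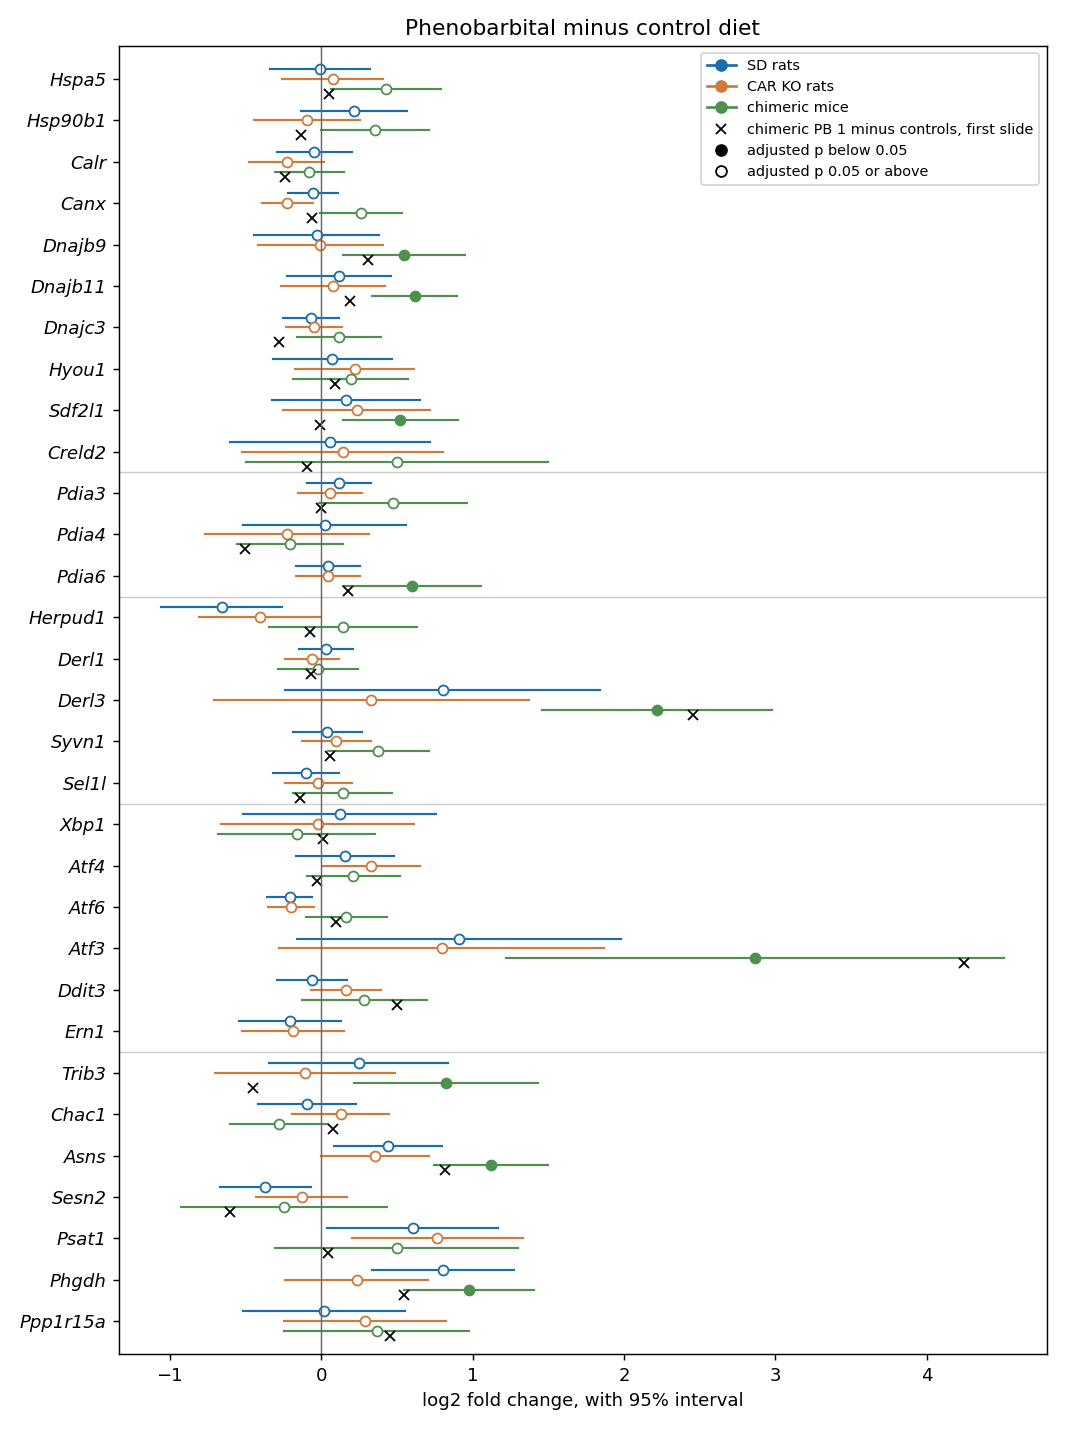
Log2 fold change of each gene on the phenobarbital diet against the control diet in SD rats, CAR KO rats and chimeric mice, with 95% intervals from limma; filled points had an adjusted p below 0.05, grey lines divide the roles, and crosses give the 1 chimeric mouse on PB that shared a slide with the controls minus the mean of those controls. No point is filled for either rat model, and 9 are filled for chimeric mice, where the crosses for Sdf2l1 and Trib3 lie at or below 0.

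On control diet, CAR KO livers held less mRNA than SD livers of 11 of the 31 genes tested, among them 4 of 10 chaperones, 2 of 3 isomerases, Phgdh and Asns, and more of 1. That is 35.5% lower against 19.7% of all 17724 genes, and 3.23% higher against 14.4%. The median log2 difference was -0.34 against -0.08 over all genes. All 10 chaperones tested had a difference below 0, where 40.5% of all genes tested had one above 0. These groups share their control arrays with the PB responses above.

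Among the chaperones, Hsp90b1 (GRP94, the ER member of the HSP90 family) read 4.00, 3.89, 4.18 and 3.81 in SD controls and 2.78, 3.06, 3.74 and 3.12 in CAR KO controls. Every CAR KO array lay below every SD array, and the difference was -0.79 ± 0.16 (adjusted p = 0.00196). Sdf2l1, a component of a chaperone complex with BiP, read 3.73, 3.42, 4.26 and 3.36 against 2.15, 2.74, 3.20 and 2.83. The groups again did not overlap, with a difference of -0.96 ± 0.23 (adjusted p = 0.00519) by this probe and -0.93 ± 0.20 (adjusted p = 0.00323) by its second probe. Calr, the lectin chaperone calreticulin, read 5.66, 5.21, 5.52 and 5.27 against 4.60, 5.04, 5.14 and 4.76, a difference of -0.53 ± 0.12 (adjusted p = 0.00283). Dnajc3, a BiP co-chaperone that also inhibits PERK, differed by -0.32 ± 0.09 (adjusted p = 0.0115). Hspa5 itself read 5.29, 5.49, 6.06 and 5.68 in CAR KO controls, which overlapped SD controls, and its difference of -0.28 ± 0.15 was not called (adjusted p = 0.186).

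The isomerases, which form and reshuffle disulfide bonds, all 3 had a difference below 0, and 2 of them were called. Pdia3 differed by -0.46 ± 0.10 (adjusted p = 0.00268) and Pdia6 by -0.41 ± 0.10 (adjusted p = 0.00588), both with no overlap between groups. Pdia4 was not called, at -0.21 ± 0.25 (adjusted p = 0.54). In ER-associated degradation, Sel1l, the adaptor of the HRD1 ubiquitin ligase, differed by -0.47 ± 0.10 (adjusted p = 0.0031), and by -0.73 ± 0.13 with its second probe. Syvn1, which encodes HRD1, was not called at -0.17 ± 0.11 (adjusted p = 0.243), nor was Derl1, a channel component, at 0.09 ± 0.08 (adjusted p = 0.444). Herpud1 differed by -0.54 ± 0.19 (adjusted p = 0.0388). That call rested on several single arrays: the difference was -0.42, -0.47 and -0.58 without SD control 1, 2 or 4, and -0.51, -0.55 and -0.44 without CAR KO control 1, 3 or 4, with adjusted p from 0.0503 to 0.112. Of the 8 genes with an ERSE match, Hsp90b1, Calr and Dnajc3 were called lower, against 19.7% of all genes. All CAR KO arrays lay below all SD arrays for 10 of the 31 genes, against 19.9% of all genes.

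The largest differences were in amino acid synthesis. Phgdh read between -1.48 and -0.71 in SD controls and between -2.94 and -2.08 in CAR KO controls, a difference of -1.48 ± 0.22 (adjusted p = 0.000161). Asns, asparagine synthetase and a standard ATF4 target, read -2.87, -2.28, -2.34 and -2.77 against -3.96, -3.58, -3.73 and -3.76. Neither gene overlapped between the groups, and Asns differed by -1.19 ± 0.17 (adjusted p = 9.91e-05). Psat1 had a difference of -0.50 ± 0.26 that was not called (adjusted p = 0.165). Chac1, a glutathione-degrading enzyme induced by ATF4, was the 1 gene called higher. It read -0.50, -0.18, -0.32 and -0.999 in SD controls and 0.00, 0.03, 0.31 and -0.15 in CAR KO controls, a difference of 0.55 ± 0.15 (adjusted p = 0.0119).

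Among the sensors and transcription factors, only Ddit3 passed, at -0.30 ± 0.11 (adjusted p = 0.0453). Its difference was -0.30, -0.28 and -0.26 without SD control 1, 2 or 3, and -0.23, -0.28 and -0.31 without CAR KO control 1, 3 or 4, with adjusted p from 0.0707 to 0.138. Herpud1 and Ddit3 were also not called with normexp background, quantile normalization or no filter on dim probes, and with all 30 arrays in the fit Pdia3, Pdia6, Dnajc3, Sel1l, Herpud1 and Ddit3 were not called. Atf4 read 4.16, 3.99, 4.30 and 3.98 in SD controls and 4.29, 4.13, 3.86 and 3.92 in CAR KO controls, a difference of -0.06 ± 0.15 (adjusted p = 0.79). Xbp1 differed by 0.47 ± 0.30 (adjusted p = 0.245), and Atf6 by -0.03 ± 0.07 (adjusted p = 0.773). For these 3 factors the groups overlapped on control diet.

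On PB diet the rats of both models gave a separate set of arrays, but on the same slides as the controls of their model. Model and slide therefore cannot be told apart here either. Of the 11 genes lower in CAR KO controls, 8 again had all 4 CAR KO arrays below all 4 SD arrays: Hsp90b1, Calr, Sdf2l1, Pdia3, Pdia6, Sel1l, Asns and Phgdh. Over all 31 genes this held for 12, and over all genes for 23.1%. Hsp90b1 read 3.003, 2.97, 3.02 and 3.35 in CAR KO rats on PB against 4.23, 4.03, 4.24 and 4.26 in SD rats on PB. Chac1 was again wholly higher in CAR KO rats, as were 15.8% of all genes, at 0.37, 0.17, 0.17 and 0.00 against -0.73, -0.58, -0.60 and -0.47.

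Markers of cell types were also counted, against 19.7% of all genes lower and 14.4% higher. The log2 summed level of 15 hepatocyte markers ranged from 12.39 to 12.45 in SD controls and from 12.18 to 12.26 in CAR KO controls, with 8 of 15 called lower. Among macrophage markers 4 of 13 tested were lower, with sums of 6.72 to 6.94 against 6.20 to 6.86. Among plasma and B cell markers, cells that secrete antibody and are rich in ER chaperones, 2 of 5 tested were lower, with sums of -0.93 to -0.22 against -1.48 to -0.91 and Tnfrsf17 and Irf4 not above background in CAR KO controls. Of 9 T and NK cell markers 2 were higher (Gzmb at 1.80 and Cd3d at 0.37), and of 10 stellate cell and fibroblast markers 3 were lower and 1 higher. Of 7 endothelial and of 6 cholangiocyte markers 1 each was lower, and 0 of 3 neutrophil and 0 of 4 erythroid markers were called. Their part in the differences above was not tested. In bulk liver, fewer cells of a type and less RNA per cell cannot be told apart.

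**Figure D2:**
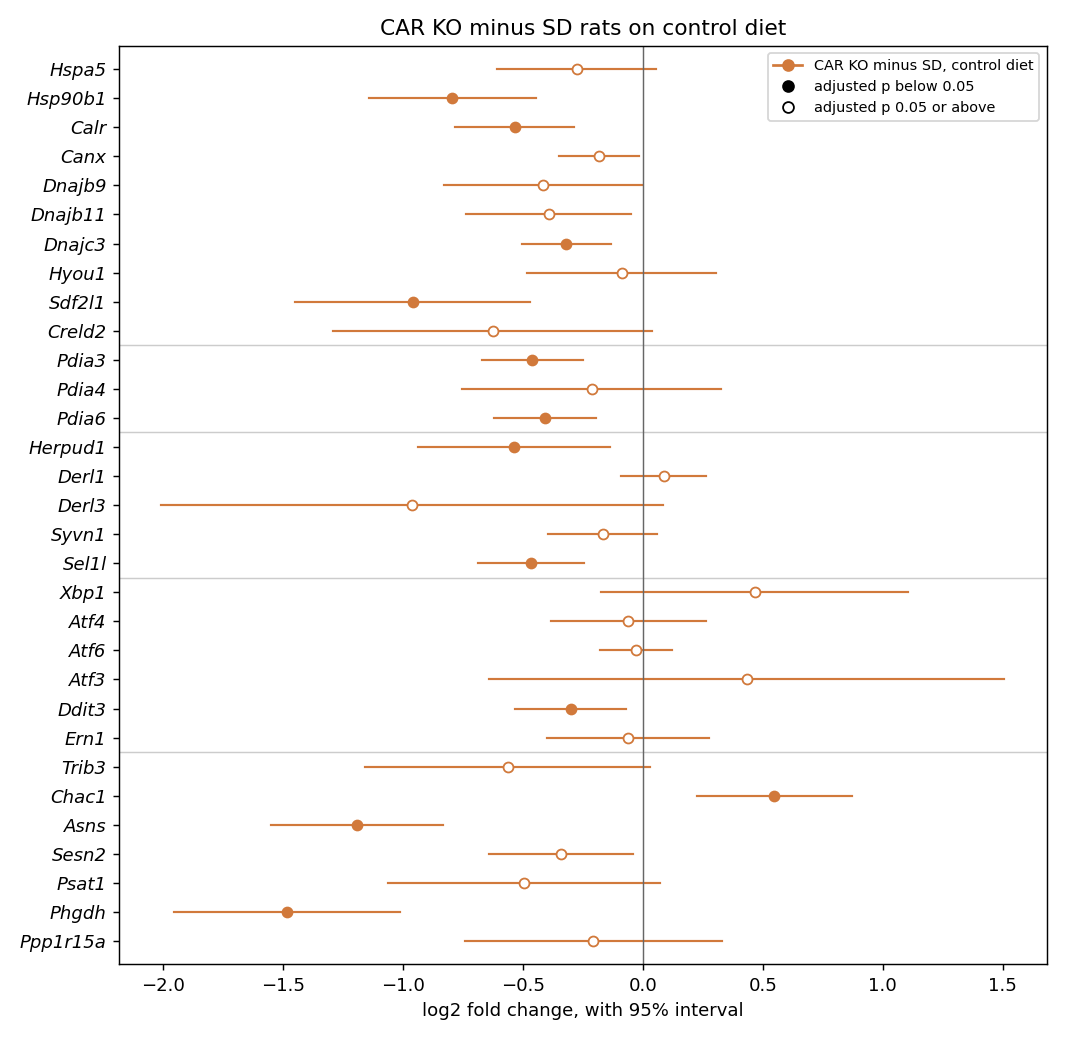
Log2 difference of each gene between CAR KO and SD rats on control diet (4 arrays each), with 95% intervals from limma; filled points had an adjusted p below 0.05 and grey lines divide the roles. All 10 chaperones lie left of 0, Phgdh and Asns lie farthest left at -1.48 and -1.19, and Chac1 is the filled point on the right at 0.55.

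Wider lists of the same pathways were counted for the same comparison. Of 43 other ER folding and quality control genes, 12 were lower and 0 higher in CAR KO controls, led by Txndc11 at -0.52 and by Fkbp2, Dnajc10 and Nucb2 at -0.42, -0.42 and -0.39. Of 29 other ATF4 targets, 12 were lower and 2 higher. Ddit4, an inhibitor of mTORC1, differed by -0.83, the mitochondrial enzyme Pck2 by -0.73, the tryptophanyl-tRNA synthetase gene Wars1 by -0.64 and the factor Atf5 by -0.54. Of 12 other sensors and proteases, 2 were higher (Mbtps2 at 0.57 and Creb3l2 at 0.45) and 2 lower (Eif2ak1 at -0.27 and Mbtps1 at -0.19). The share of all genes called lower was 19.7% and that called higher 14.4%, as above.

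For the PB response of SD rats, 1 of 43 folding genes was called higher and 0 lower, and of 29 other ATF4 targets 2 were higher and 2 lower (6.9% each), against 2.5% of all genes higher and 1.8% lower. Ssr1, a subunit of the translocon-associated complex, rose by 0.26. Among the ATF4 targets, the amino acid transporter subunit Slc3a2 rose by 0.57 and Pck2 by 0.43, while the hormone gene Fgf21 fell by 1.33 and Atf5 fell by 0.44. None of these genes was called in CAR KO rats on PB, where 0 of 43 and 0 of 29 passed, against 0.205% of all genes. The difference between the PB responses of CAR KO and SD rats was also called for 0 of 43 and 0 of 29, against 0.533% of all genes.

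In chimeric mice, PB raised 9 of the 30 genes tested and lowered 0, but only 1 mouse on PB shared a slide with the controls. The 9 are 30% of those tested, against 19.3% of all 14445 genes called higher. Of all genes 23.4% were called lower, and 42.7% in either direction. The median log2 fold change of the 30 genes was 0.36 against 0.06 over all genes. With the slide as a block in the fit, which rests the contrast on that 1 mouse, 0 were called, against 1.09% of all genes, and the median was 0.03 against -0.04 over all genes. Under the same block 10 of the 11 PB and CAR check genes were above 0, with a median of 2.73 and Cyp2b2 at 5.59.

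Atf3 and Derl3 showed the largest rises among these genes, on the shared slide too. Atf3 ranged from -3.14 over a median of -0.87 to 1.56 in 7 controls and from 0.58 over 1.49 to 5.47 in 7 mice on PB. The groups overlapped, and the rise was 2.87 ± 0.77 (adjusted p = 0.00753). Derl3, a derlin of ER-associated degradation found mainly in secretory cells, ranged from -1.19 over -0.32 to 1.37 in controls and from 0.80 over 1.95 to 2.67 on PB. It overlapped through 1 control, and rose by 2.22 ± 0.36 (adjusted p = 0.000202). The PB mouse on the shared slide read 3.50 for Atf3 and 2.22 for Derl3, or 4.25 and 2.46 above the mean of the controls beside it, with adjusted p of 0.307 and 0.179 in the fit with the slide block. A second Derl3 probe was well above background on 3 of 7 controls and 6 of 7 mice on PB and gave 1.43 ± 0.63 (adjusted p = 0.0798).

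The ATF4 targets came next. Asns ranged from -4.31 over -3.62 to -3.41 in controls and from -3.09 over -2.63 to -2.01 on PB. It was the 1 gene of the 30 whose groups did not overlap, against 4.99% of all genes above and 7.69% below, and it rose by 1.12 ± 0.18 (adjusted p = 0.000178). Phgdh ranged from -1.42 over -0.91 to -0.47 and from -0.62 over 0.12 to 0.75, with overlap through 1 PB array, and rose by 0.98 ± 0.20 (adjusted p = 0.00122). On the shared slide the PB mouse lay 0.82 above the control mean for Asns and 0.55 above it for Phgdh.

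Trib3, a pseudokinase that restrains the ATF4 response, differed between the slides. It ranged from -1.33 over -0.70 to -0.19 in controls and from -1.16 over 0.23 to 0.83 on PB, and rose by 0.83 ± 0.29 (adjusted p = 0.0295). The PB mouse on the shared slide was the lowest of its group, 0.45 below the control mean (a log2 difference of -0.45). The call was lost without chimeric control 5 (0.72) and without chimeric PB 3, 6 or 7 (0.71, 0.73 and 0.72), with adjusted p from 0.0626 to 0.0655.

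Of the chaperones and isomerases, 4 rose. Dnajb11, a BiP co-chaperone, ranged from 1.04 over 1.23 to 1.58 in controls and from 1.46 over 1.96 to 2.20 on PB, and rose by 0.62 ± 0.13 (adjusted p = 0.00154). Pdia6 rose by 0.60 ± 0.22 (adjusted p = 0.0346), Dnajb9, a BiP co-chaperone, by 0.55 ± 0.19 (adjusted p = 0.0291), and Sdf2l1 by 0.52 ± 0.18 (adjusted p = 0.0281). On the shared slide these 4 differed from the control mean by 0.19, 0.17, 0.31 and -0.01. Of these 4, only Dnajb11 kept its call whichever single array was left out.

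The other calls among them depended on single arrays. Pdia6 gave adjusted p from 0.0515 to 0.0726 without chimeric control 2 (0.45), 4 (0.54) or 6 (0.58), or chimeric PB 2 (0.60), 3 (0.59), 5 (0.52), 6 (0.59) or 7 (0.56). Dnajb9 gave 0.0582 to 0.0637 without chimeric control 1 (0.50), 3 (0.48) or 5 (0.47), or chimeric PB 4 (0.46) or 6 (0.49). Sdf2l1 gave 0.0523 to 0.0626 without chimeric control 2 (0.47), 3 (0.48) or 5 (0.49), or chimeric PB 4 (0.44), 6 (0.50) or 7 (0.44). Without chimeric PB 6 the count of genes called fell from 9 to 5. With no filter on dim probes Trib3, Sdf2l1, Pdia6 and Dnajb9 were not called, and with quantile normalization Sdf2l1 and Pdia6 were not.

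The remaining genes of chimeric mice did not pass. Hspa5 ranged from 6.22 over 6.49 to 6.95 in controls and from 6.56 over 6.93 to 7.50 on PB, a change of 0.43 ± 0.17 (adjusted p = 0.0543), and of 0.05 on the shared slide. Ddit3 changed by 0.29 ± 0.19 (adjusted p = 0.253), Atf4 by 0.21 ± 0.14 (adjusted p = 0.256) and Xbp1 by -0.16 ± 0.24 (adjusted p = 0.616). Atf6 differed between its probes: the brighter one gave 0.17 ± 0.13 (adjusted p = 0.308) and the dimmer one 0.69 ± 0.21 (adjusted p = 0.016), the latter well above background on 5 of 7 controls. The changes of the others lay between -0.28 (Chac1) and 0.50 (Creld2 and Psat1).

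The wider lists were counted in the same way, against 19.3% of all genes called higher and 23.4% lower. Of 42 other ER folding genes, 24 rose and 0 fell, led by the translocon subunit gene Sec61a1 at 0.93, then Selenok at 0.87, the cargo receptor gene Lman1 at 0.86 and the folding sensor gene Uggt1 at 0.80. With the slide block 0 of the 42 were called, 34 were above 0 and their median was 0.26. Of 28 other ATF4 targets, 11 rose and 1 fell: the stress hormone gene Gdf15 rose by 2.02, Slc3a2 by 1.65, Mthfd2 by 0.93 and Eprs1 by 0.82, while the proline synthesis gene Aldh18a1 fell by 0.75. With the block, 16 of the 28 were above 0 and 12 below, their median was 0.07, and 0 were called higher and 1 lower. That gene, named after its value was seen, was the stress-induced Nupr1, at -3.04 ± 0.63 (adjusted p = 0.0325), against -0.99 ± 0.43 (adjusted p = 0.0771) without the block. Gdf15 was at 3.26 (adjusted p = 0.083) and Slc3a2 at 1.42 (adjusted p = 0.599), while Fgf21 was at -2.46 (adjusted p = 0.329) and Cth at -1.51 (adjusted p = 0.51). Macrophage markers were called lower on PB in 5 of 9 cases and T and NK cell markers in 3 of 3, against 23.4% of all genes, with macrophage sums of 5.82 to 6.08 in controls and 5.32 to 5.96 on PB. With the slide block 6631 of all 14445 genes were above 0 and 7814 below. Of the markers, 8 of the 9 of macrophages and 2 of the 3 of T and NK cells were below 0. Their medians were -0.44 and -0.86, against -0.04 over all genes. Their part in these changes was not tested.

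The difference between the PB responses of chimeric mice and SD rats, which shares its arrays with the comparisons of both models, was called for 0 of the 31 genes, against 18.9% of all 17255 genes (6.29% higher and 12.6% lower), with 5444 of all genes at an unadjusted p below 0.05. Asns came closest, at 0.68 ± 0.26 (adjusted p = 0.0684), followed by Herpud1 at 0.80 ± 0.33 (adjusted p = 0.087). The interval for Derl3 ran from 0.14 to 2.69 and that for Atf3 from -0.23 to 4.14, so these arrays did not show whether the responses of the animal models differ for these genes. Among other genes of the pathways, 8 of 43 folding genes had a larger response in chimeric mice, led by Lman1 at 0.82, Ubxn4 at 0.71, Selenok at 0.68 and Txndc11 at 0.64. The slide enters this contrast too, since 6 chimeric mice on PB lay on another slide than the chimeric controls. With the slide block, the chimeric response was 0.91 for Lman1, 0.24 for Ubxn4, 0.50 for Selenok and 0.06 for Txndc11. Of 29 other ATF4 targets, Eprs1 had a larger response (0.83) and Aldh18a1 a smaller one (-0.72).

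**Figure D3:**
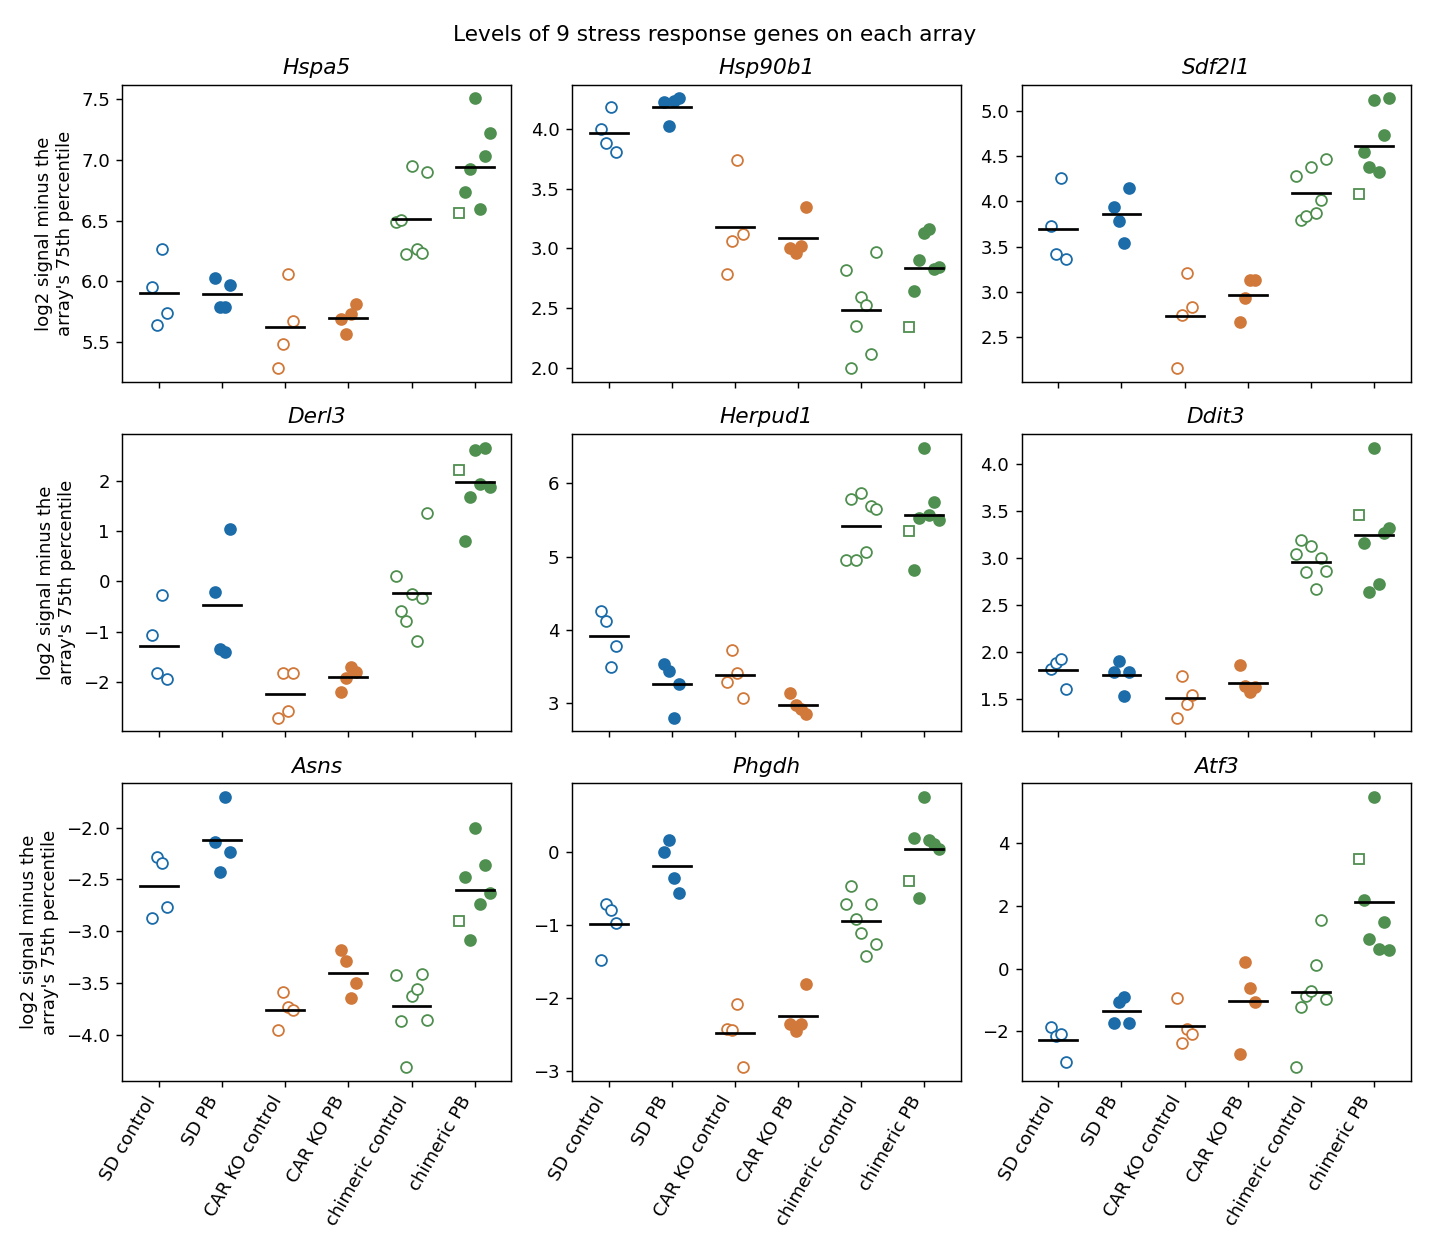
Level of 9 genes on every array, as log2 signal minus the 75th percentile of the array, in the 6 groups; points are arrays (open for control diet, filled for PB, open square for the PB mouse on the slide of the chimeric controls) and bars are group means. Hsp90b1, Sdf2l1, Asns and Phgdh separate CAR KO from SD controls, and Herpud1 and Ddit3 are higher in chimeric mice than in SD rats.

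Chimeric livers and SD livers on control diet differed in these genes in both directions. Of 31 genes tested, 13 were higher and 12 lower in chimeric mice, against 38.7% of all 17160 genes higher and 35.9% lower. Model, slide and scan day cannot be told apart here, and how far mouse RNA of the host binds these rat probes was not tested. Rat markers of immune cells were lower in chimeric livers: 11 of 13 macrophage, 7 of 9 T and NK cell and 5 of 5 plasma and B cell markers were called lower, with Marco and C1qc not above background. Of 4 erythroid markers 2 were called lower, with log2 sums of 0.39 to 1.02 against 6.63 to 8.01 in SD controls. The hepatocyte sum was 12.34 to 12.52 against 12.39 to 12.45, with 6 of 15 markers called lower and 2 higher. Of 7 endothelial markers 5 were lower and 0 higher, and of 10 stellate cell and fibroblast markers 6 were lower and 4 higher. Of 3 neutrophil markers 2 were lower and 0 higher, and of 6 cholangiocyte markers 3 were lower and 2 higher. The part of other cells in the differences was not tested. Another scaling, on the median of each array, raised the median of all genes by chimeric minus SD from 0.04 to 0.44 and gave 16 genes higher and 7 lower, and quantile normalization gave 10 and 12.

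By role, 4 of 5 genes of ER-associated degradation were higher in chimeric mice and 1 lower. Of 6 sensors and factors 3 were higher and 1 lower, and of 7 ATF4 targets and feedback genes 3 were higher and 2 lower. Over all genes 38.7% were higher and 35.9% lower. Ppp1r15a (GADD34), the phosphatase subunit that reverses eIF2alpha phosphorylation, read -0.02, -0.22, 0.25 and -0.20 in SD controls and from 1.66 over 2.05 to 3.82 in chimeric controls. The groups did not overlap, and the difference was 2.31 ± 0.30 (adjusted p = 1.11e-07). Herpud1 ranged from 4.95 over 5.65 to 5.86 in chimeric controls, above the highest SD control at 4.25, with a difference of 1.51 ± 0.23 (adjusted p = 1.91e-06). Ddit3 ranged from 2.67 over 2.997 to 3.19, above 1.93 in the highest SD control, with a difference of 1.15 ± 0.18 (adjusted p = 2.63e-06). Hyou1, an ER nucleotide exchange factor, was higher by 0.99 ± 0.19 (adjusted p = 4.96e-05), Trib3 by 0.84 ± 0.31 (adjusted p = 0.0158) and Derl3 by 1.04 ± 0.44 (adjusted p = 0.0349), but by 0.37 (adjusted p = 0.488) with the mean of its probes.

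All 3 isomerases were lower, and of 10 chaperones 5 were lower and 3 higher, against 35.9% of all genes lower and 38.7% higher. Pdia3 ranged from 0.63 over 1.32 to 1.80 in chimeric controls, below 3.01 in the lowest SD control, with a difference of -1.94 ± 0.21 (adjusted p = 5.7e-09). Hsp90b1 ranged from 1.99 over 2.53 to 2.97, below 3.81, with a difference of -1.49 ± 0.18 (adjusted p = 2.97e-08). Sesn2 differed by -1.59 ± 0.29 (adjusted p = 2.49e-05), Creld2 by -1.14 ± 0.46 (adjusted p = 0.0272), Asns by -1.15 ± 0.18 (adjusted p = 3.46e-06) and Pdia4 by -0.82 ± 0.21 (adjusted p = 0.00119). Asns reached only -0.10 with another background correction (normexp), where it was not called (adjusted p = 0.366), and Pdia4 -0.42 with median scaling (adjusted p = 0.0929). With median scaling Pdia6, Dnajb11 and Creld2 were not called either. Hspa5 differed by 0.61 ± 0.17 (adjusted p = 0.00293), but by -0.09 (adjusted p = 0.601) after quantile normalization.

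Between the outer values, the other genes called differed by 0.42 to 0.81 above and by -0.77 to -0.27 below. Atf4 was at 0.79 and Xbp1 at 0.81, though Atf4 gave 0.27 (adjusted p = 0.072) and Xbp1 0.33 (adjusted p = 0.309) with quantile normalization. Sel1l was at -0.77, Atf6 at -0.75, Pdia6 at -0.74, Dnajc3 at -0.72, Dnajb11 at -0.53 and Canx at -0.27, the last of which turned to 0.13 with median scaling. Groups did not overlap for 7 genes above and 8 below, against 32.6% and 28.3% of all genes.

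Some of these calls depended on single arrays. Derl3 gave 0.99, 0.78, 0.86 and 0.82 without chimeric control 1 or 7 or SD control 2 or 4 (adjusted p from 0.0551 to 0.129). Creld2 gave -0.89, -0.87, -1.12 and -0.87 without chimeric control 2 or 4 or SD control 1 or 3 (0.052 to 0.118). Dnajb9 gave 0.44, 0.43, 0.49 and 0.40 without chimeric control 4 or 7 or SD control 2 or 3 (0.0541 to 0.109). Canx gave -0.21 to -0.26 without chimeric control 2, 4 or 6 and -0.24 to -0.26 without SD control 1, 2 or 3 (0.0506 to 0.0927), and Chac1 gave 0.26 without SD control 4 (0.151).

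On PB diet, where the arrays of both groups are separate ones, 13 genes were higher and 8 lower in chimeric mice, against 38.8% and 33.9% of all 15803 genes, or 72.7% in either direction. Ppp1r15a was higher by 2.66 ± 0.29, Derl3 by 2.46 ± 0.44, Herpud1 by 2.31 ± 0.23 and Ddit3 by 1.496 ± 0.18. Atf3 had the largest difference, 3.48 ± 0.75 (adjusted p = 0.000179), with every chimeric array above every SD array. Hspa5 was now wholly above SD rats, at 1.04 ± 0.17 (adjusted p = 6.1e-06). Trib3 was higher by 1.42, Hyou1 by 1.11, Dnajb9 by 1.08 and Syvn1 by 1.05. Atf4, Sdf2l1 and Derl1 were also called higher, but not with quantile normalization. There they were at 0.22, 0.15 and 0.11 (adjusted p = 0.148, 0.4996 and 0.254). Pdia3 was lower at -1.59 ± 0.21, Sesn2 at -1.47 ± 0.29, Hsp90b1 at -1.35 ± 0.18 and Pdia4 at -1.05 ± 0.21, the last of which reached -0.37 with median scaling and was not called there (adjusted p = 0.133).

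Median scaling moved the median of all genes from 0.01 to 0.69 and gave 20 genes higher and 3 lower, and quantile normalization gave 10 and 10. Asns, at -0.48 ± 0.18 (adjusted p = 0.0218), turned to 0.20 with median scaling and lost its call without chimeric PB 3 (-0.40) or SD PB 3 (-0.34). Atf6, Dnajc3 and Sel1l, at -0.38, -0.53 and -0.53, turned to 0.30, 0.15 and 0.15 with median scaling. Groups did not overlap for 10 genes above and 5 below, against 30.8% and 23.4% of all genes.

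**Figure D4:**
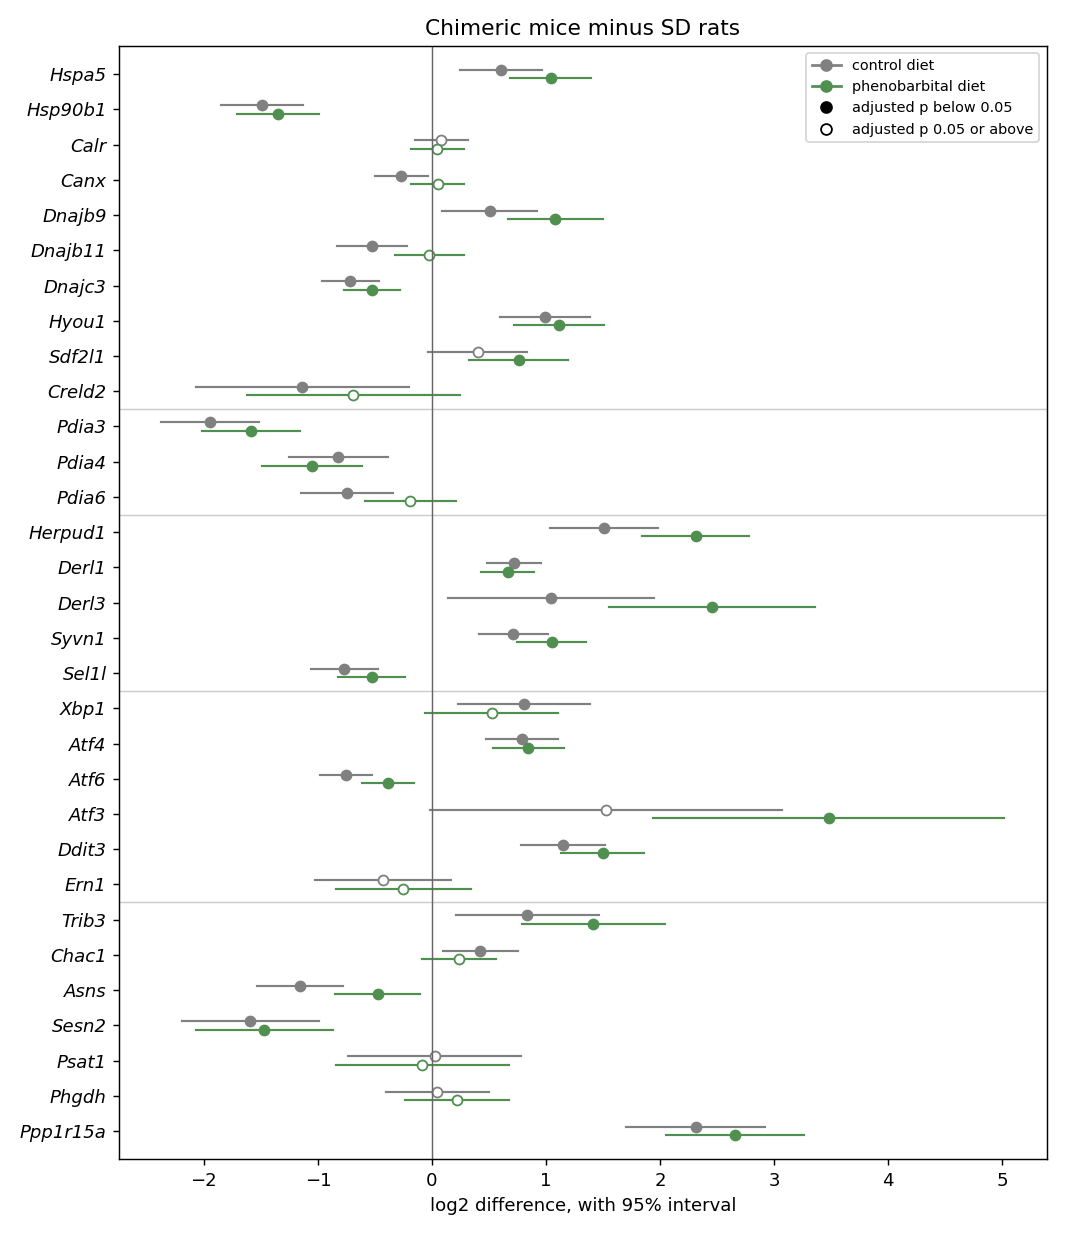
Log2 difference of each gene between chimeric mice and SD rats on control diet (grey) and on phenobarbital diet (green), with 95% intervals from limma; filled points had an adjusted p below 0.05 and grey lines divide the roles. Herpud1, Ddit3, Hyou1 and Ppp1r15a lie right of 0 and Hsp90b1, Pdia3 and Sesn2 left of 0 on both diets.

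Within groups, single animals were high or low for most chaperones and isomerases at once. For 13 of these genes, CAR KO control 1 had the lowest level of its group in 13 and CAR KO control 3 the highest in 11, with mean deviations from the group mean of -0.37 and 0.35. In SD controls, animal 3 was highest in 10 of 13, with a mean deviation of 0.26, and animal 2 was below the mean in 12. Chimeric control 7 was highest in 9 (mean deviation 0.45), and chimeric control 2 was below the mean in 12 (-0.37). The chimeric PB mouse on the shared slide was below the mean of the PB group in all 13 (-0.37). Such counts were not made over all genes, so traits of these genes and of whole arrays cannot be told apart here.

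**Figure D5:**
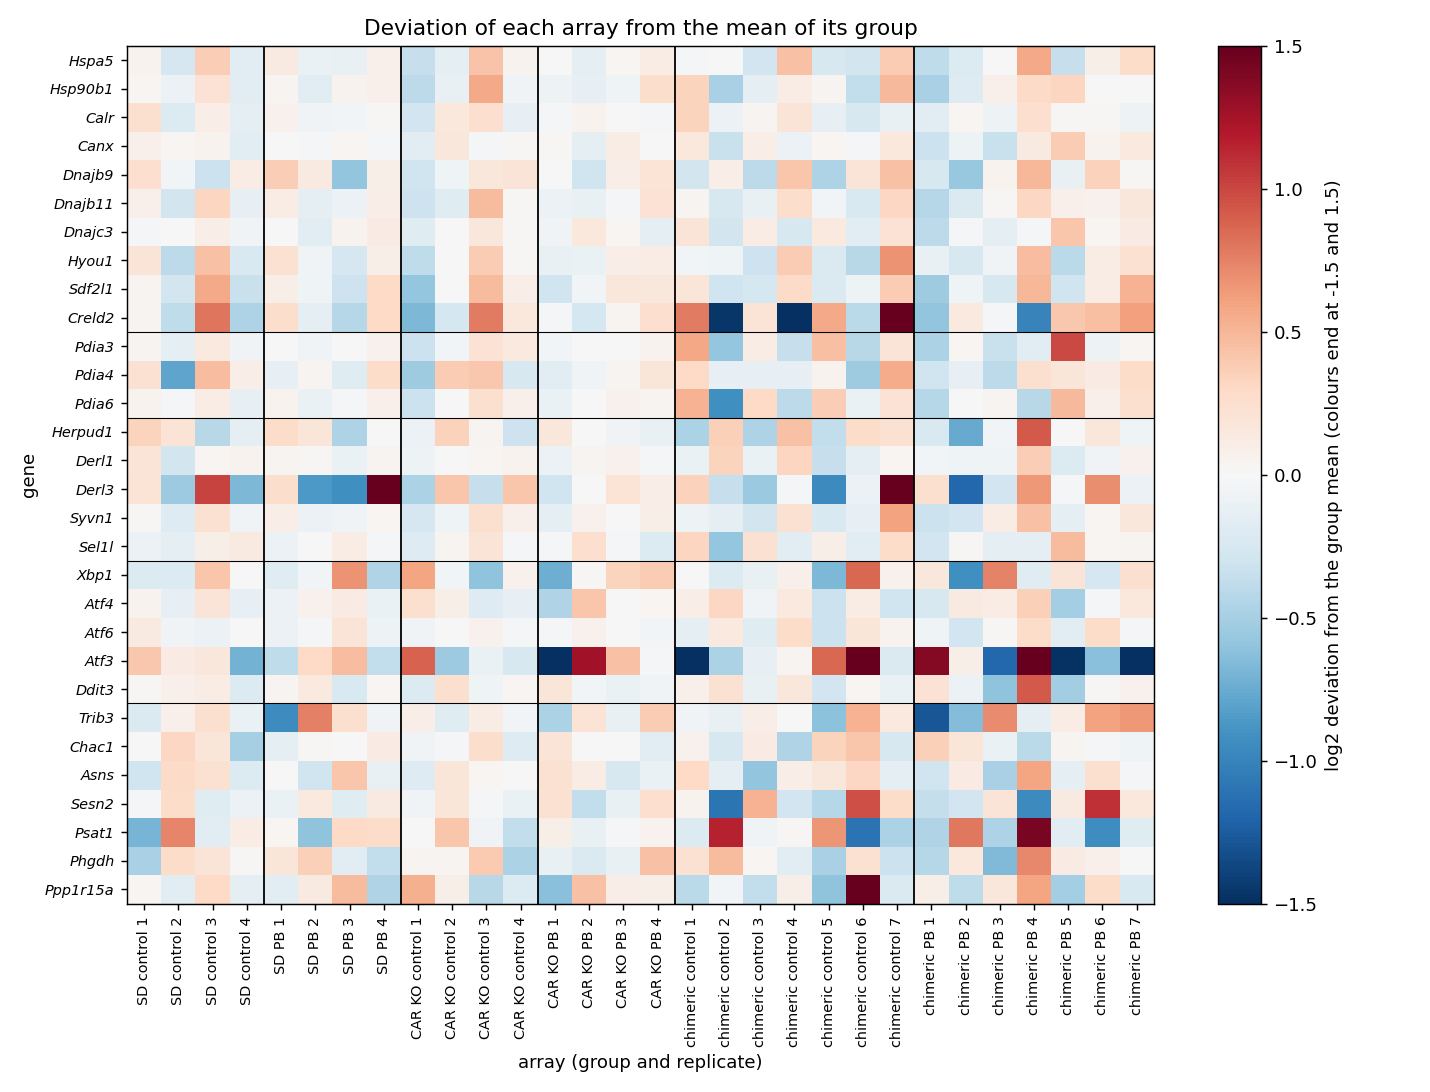
Deviation of each array from the mean of its group (log2, colour scale ending at -1.5 and 1.5) for 30 genes in rows, ordered by role, and 30 arrays in columns, ordered by group; black lines divide groups and roles. The chaperone rows at the top share colour within a column, blue in CAR KO control 1 and chimeric PB 1 and red in CAR KO control 3 and chimeric control 7.

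Single animals also stood out for other genes. Ppp1r15a was highest in chimeric control 6 at 3.82, where the other controls lay between 1.66 and 2.35, and Atf3 was also highest there at 1.56. In chimeric mice on PB, animal 4 had the highest Atf3 (5.47), Ddit3 (4.17) and Herpud1 (6.49), and also the highest level of the chaperone Hspa5 (7.50). Ern1, encoding the sensor IRE1, lay between -6.26 and -4.17 over all 30 arrays. It was well above background on 4 of 4 arrays of each rat group except SD rats on PB (3 of 4), and on 3 of 7 arrays of each chimeric group.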

How the data were processed

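The 34 genes and the other lists were chosen with earlier results of these data known. The intensity values are the processed signals of the deposited scanner files, background-subtracted by Agilent Feature Extraction 10.7.3.1 (protocol GE1_107_Sep09) per the file headers, with no scaling from one array to another. The log2 values of the authors' deposited series matrix, each array shifted so that its 75th percentile lies near 0, served as an alternative. Of 62976 spots, 4259 control spots and spots with outlier flags were left out, spots of a probe were averaged, and 30367 probes were named through transcript accessions in a rat RefSeq table (GRCr8), of which 18004 matched a symbol. Each array's log2 signals were shifted by their 75th percentile before testing. For symbols with several probes, the probe brightest on average in the 16 rat samples stood for the gene, and others are given where they disagree in sign or call.

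Fits used limma 3.58.1 (lmFit, eBayes) in R 4.3.3: 16 rat arrays for the rat comparisons, 14 chimeric arrays for their PB response, and all 30 for chimeric mice against SD rats. Adjusted p-values are Benjamini-Hochberg over all genes tested, with a threshold of 0.05. Replicates are biological ones per the labels, and precision is limited by how many arrays each group has. The fits were tested on simulated data. Genes called in any comparison are named, beyond 12 in a comparison the 12 with the largest change in full. Hspa5, Xbp1, Atf4 and Ddit3 are given, called or not, for PB in SD rats and in chimeric mice. They are also given for CAR KO and chimeric livers against SD livers on control diet, and not all of them elsewhere. Where a wider list is described, up to 4 called genes in a direction are named. Alternatives were normexp background, quantile and median scaling, no filter on dim probes, the series matrix, trended robust spread, array weights, probe means, other sets of arrays, the slide and the replicate number as blocks, and leaving out each array.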

Additional observations from a re-analysis of the deposited data

Results flagged for a closer look

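In 8 of 186 sets of arrays (31 genes in 6 groups), 1 array stood far from the rest of its group by Dixon's gap test, which chance flags in about 1 of 20 sets. In SD rats on PB, Hsp90b1 was low in animal 2 at 4.03 (the others 4.23 to 4.26) and Derl1 was low in animal 3 at 3.24 (3.35 to 3.37). CAR KO rat 4 on PB was high for Hsp90b1 at 3.35 (2.97 to 3.02) and for Phgdh at -1.80 (-2.45 to -2.35). CAR KO rat 2 on PB was high for Ern1 at -4.28 (-4.82 to -4.74). Chimeric mouse 5 on PB was high for Pdia3 at 2.68 (1.21 to 1.72) and for Sel1l at 0.16 (-0.60 to -0.28). Chimeric control 6 was high for Ppp1r15a at 3.82 (1.66 to 2.35). No cause was tested. The PB responses of CAR KO and SD rats, and of chimeric mice and SD rats, did not differ past the threshold for any of these genes; chimeric mice and CAR KO rats were not compared.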

How the results depend on the processing

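The counts of genes called stayed at 0 for PB in CAR KO rats and for the difference of PB responses between CAR KO and SD rats under every alternative run, arrays left out included, and stayed within 1.5 times the main count for chimeric mice against SD rats on both diets (22 to 25 on control diet and 20 to 22 on PB diet with 1 array left out). For PB in SD rats the count was 2 (1 higher, 1 lower) with normexp background and with no filter on dim probes, 1 with quantile normalization or trended robust spread, and 0 to 1 with 1 array left out. For CAR KO against SD controls it was 6 (1 higher, 5 lower) with all 30 arrays in the fit and 10 to 13 with 1 array left out. For PB in chimeric mice it was 19 with median scaling, which moved the median of all genes from 0.06 to 0.35, 16 with array weights, 14 with all 30 arrays in the fit, 5 with no filter, 0 with the slide block, and 5 to 13 with 1 array left out. For the difference of PB responses between chimeric mice and SD rats it was 8 with median scaling, which moved the median of all genes from 0.08 to 0.35, 4 with array weights, 1 with quantile normalization or probe means, and 0 to 2 with 1 array left out. For chimeric mice against SD rats, normexp background moved the median of all genes to 0.25 on control diet and 0.23 on PB diet. Between the diets, arrays of the same replicate number correlated from -0.24 to 0.10 in the rats, with 1 of 4 best matched to its own number in each model. In chimeric mice these correlations ran from -0.22 to 0.82, with 3 of 7 best matched. The labels do not say that the numbers pair the samples, and whether they do in chimeric mice was not tested. With the replicate number as a block the count was 1 for PB in SD rats, 1 for the difference of responses between chimeric mice and SD rats, 11 for PB in chimeric mice, and within 1.5 times the main count elsewhere.

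With the slide block in chimeric mice, Trib3 turned to -0.45 and Sdf2l1 to -0.0104. Against SD controls, Hspa5 turned to -0.089 with quantile normalization and Canx to 0.13 with median scaling. On PB diet, Asns turned to 0.027 with normexp background, 0.00985 with quantile normalization and 0.20 with median scaling, and Atf6, Dnajc3 and Sel1l turned to 0.30, 0.15 and 0.15 with median scaling. The cause was not tested. Signal over background limits Ern1 in chimeric mice and the second probe of Derl3.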
